A study of Rattus norvegicus with 18 samples.

Results

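The effect of WTD that was common to 2 arthritis models in rat knee synovium was measured by comparing 6 arrays of WTD-treated rats with 6 arrays of untreated rats of the same models. The members were the arrays labelled as WTD treatment and those labelled as AIA-cold or AIA-hot rats, which made 12 of the 18 arrays of the series. The untreated groups were AIA-cold and AIA-hot and the treated groups AIA-cold-WTD and AIA-hot-WTD, with 3 arrays each. All 4 groups were male Lewis rats of 6 to 8 weeks with adjuvant-induced arthritis (AIA), and the labels give 6 rats per group. The other 6 arrays, from control rats and from rats with AIA alone, were not part of the comparison. How the models were made cold or hot, and the dose and timing of WTD, are not given in the sources used here. The series title calls the source of the treatment a classic Chinese herbal formula. Titles of the WTD arrays carry different letters (G, Z or D) that the labels do not explain, and they were treated as replicates because their group labels are the same. The labels do not tie arrays to single animals, so the p-values measure the spread between these arrays, which may be partly technical.

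The synovium lines the joint with fibroblasts and macrophages over a loose tissue of vessels and fat. Adjuvant-induced arthritis is a T-cell-dependent disease in which this lining thickens, leukocytes enter it and osteoclasts erode the adjoining bone. Neutrophils, red cell precursors, bone and tendon have marker genes of their own, such as those of granule proteins, of haem synthesis, of mineralized matrix and of dense collagen tissue. In whole tissue, fewer cells of a type and less RNA per cell cannot be told apart.

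Values are log2 signals relative to the 75th percentile of the same array, so a level of 0 is the 75th percentile of that array and a difference of 1 is a 2-fold difference. The 75th percentile lay between 216.9 and 354.3 intensity units on the 12 arrays. Between 56.9% and 76.5% of probes were well above background. This share was 6.42 percentage points higher on WTD arrays, by 8.43 points in the cold and 4.4 points in the hot model (two-sided exact permutation test within models, 400 arrangements, p = 0.01, the smallest possible being 0.005). The test took no account of the slide, which partly goes with WTD. The WTD arrays of slide 5 had shares of 74% and 76.5%, and the untreated arrays of slide 2 had 63.8% and 56.9%. All 14 synovial fibroblast and lining genes and all 13 macrophage genes measured were well above background on all 12 arrays. So were all 12 endothelial and all 19 respiratory chain genes, and 18443 genes had such a probe. Detection therefore does not test the tissue label. AIA-cold-WTD replicate 1 stood apart from its group, with a mean correlation of 0.956 against 0.969 to 0.988 for the other 11 arrays. Its adipocyte markers averaged 0.87, against 2.04 to 4.08 on the other 11 arrays. The groups were spread unevenly over the slides. Slide 4 carried the 3 AIA-cold arrays and AIA-cold-WTD replicate 1, and slide 3 AIA-hot replicate 3 with the 3 AIA-hot-WTD arrays. Of the 12 arrays, slide 5 carried only AIA-cold-WTD replicates 2 and 3 and slide 2 only AIA-hot replicates 1 and 2. On slides 5 and 2 WTD cannot be told apart from the slide.

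No gene passed the test for a WTD effect shared by the models. Across 23508 genes, limma with the model as a covariate called 0 genes at an adjusted p under 0.05 (0% higher, 0% lower), and the smallest adjusted p was 0.948. At an unadjusted p under 0.05 there were 1120 genes (4.76%), 584 of them higher (2.48%) and 536 lower (2.28%) with WTD, where 1175 would be expected if none differed. Most shared differences were small: the median size was 0.11, with a median standard error of 0.147. For 20901 genes (88.9%) the 95% interval lay within 2-fold in either direction, and for 15733 (66.9%) within 1.5-fold. The genes below are therefore described by their values, and none of them passed the adjusted test in limma.

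The WTD differences of the cold and hot models, which share no arrays, had no positive correlation across genes. Over all genes, 47.4% had the same sign of WTD difference in both models. The Pearson correlation of the differences was -0.0319 and the Spearman correlation -0.102 across genes, which are not independent replicates. The WTD arrays lay wholly above or wholly below the untreated arrays in both models, in the same direction, for 119 genes (0.506%), 51 higher (0.217%) and 68 lower (0.289%). The directions were opposite for 124 genes (0.527%). Within single models there was no overlap for 14.2% of genes in the cold and 7.35% in the hot model. Of the total sum of squares, the shared WTD term held 9.67% on 1 degree of freedom, the term for different WTD effects in the models 10.3%, and the arrays within groups 8.89% per degree of freedom.

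**Figure D1:**
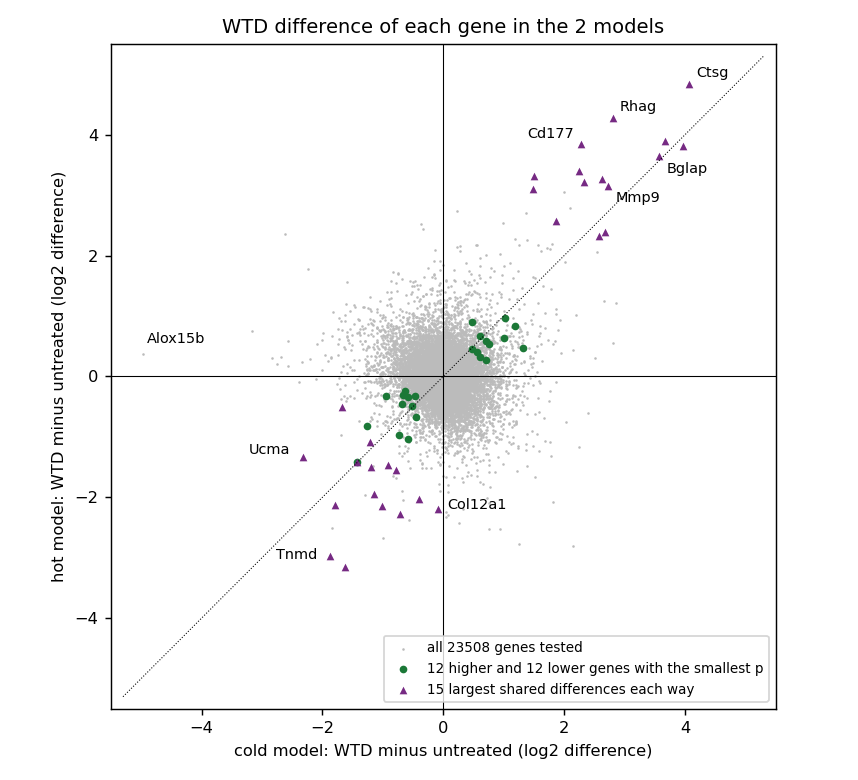
WTD minus untreated log2 difference of each of the 23508 genes in the cold model (x axis) and in the hot model (y axis), with the 24 genes of smallest p in green and the 15 largest shared differences in each direction in purple; the dotted line marks equal differences. The cloud of all genes has no diagonal trend (Pearson correlation -0.0319), and the purple points of the upper right, among them Ctsg, Rhag and Bglap, lie far outside it.

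The rule for the genes to describe took, in each direction, the 12 of smallest p with the same sign in both models and the 10 of largest difference among those without overlap, which made 30 with a symbol. The higher genes included a transporter of the glucose transporter family, a clock gene and a pyrimidine-degrading enzyme. The lower genes included Cd4, the coreceptor of helper T cells that rat macrophages also carry, and Ltbp1, which binds latent TGF-beta. For 12 of the 30 the 6 WTD arrays did not overlap the 6 untreated arrays. The share of all genes that met this was not counted, so the 12 have no background to be set against. Since these genes were selected on this comparison, the counts among them are a description. Many are dim: 12 of the 30 had the same difference when values were raised to the common floor described below, 18 were smaller by over 1.5 times and 5 of these were at 0.

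The probe of 60 bases is shown for 4 of them, because the array reports only what this stretch of the transcript binds. Positions are those of the array design on rn4, with the strand; exon or UTR status is not given there.
Mro, chr18:70660783-70660842, plus strand: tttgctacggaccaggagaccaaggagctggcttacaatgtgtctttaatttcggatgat
Upb1, chr20:13716290-13717947, minus strand: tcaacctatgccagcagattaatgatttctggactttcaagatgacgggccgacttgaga
Per3, chr5:168152851-168152910, minus strand: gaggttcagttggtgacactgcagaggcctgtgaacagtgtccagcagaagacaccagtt
Cd4, chr4:160989843-160990442, minus strand: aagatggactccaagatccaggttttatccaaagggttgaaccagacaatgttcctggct
The probes of Upb1 and Cd4 align over 1658 and 600 bases of genome, longer than the 60 bases of the probe, so their alignments hold a gap.

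Mro (maestro) had the smallest p. Its level was -4.83, -4.67 and -5.00 on the AIA-cold arrays and -3.59, -3.66 and -3.29 with WTD, and -3.93, -4.21 and -4.47 on the AIA-hot arrays and -3.63, -3.79 and -3.78 with WTD. Every WTD array lay above every untreated array. The probe was well above background on 0 of 6 untreated and 5 of 6 WTD arrays, so the difference is a bound, at least 1.48-fold by each array's own floor. With every value raised to the highest floor of the 12 arrays (-3.57), a setting chosen after seeing the data, the difference was 0.05. Its p was 0.000221 before and 0.948 after adjustment in the limma fit. The bound sets the WTD mean against, per untreated array, the higher of the probe's own signal and the lowest signal that was well above background.

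Upb1 encodes the last enzyme of pyrimidine degradation. It read -4.63, -4.71 and -4.84 on AIA-cold and -4.12, -3.15 and -3.85 on AIA-cold-WTD arrays. In the hot model it read -3.97, -3.95 and -3.37 without and -2.67, -3.36 and -2.33 with WTD. Neither model showed overlap, although the margin in the hot model was narrow, and the fitted difference was 1.00 ± 0.21 (SE). The probe was well above background on all 6 WTD arrays but on 1 of 6 untreated arrays, so the size is not exact. It was 0.43 with the common floor, 0.21 with normexp background correction and 0.59 with the slide as a fixed block.

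Slc2a6, of the family of facilitative glucose transporters, was brighter and measured on all 12 arrays. Levels were -1.85, -1.72 and -1.53 on AIA-cold, -0.96, -1.29 and -0.72 on AIA-cold-WTD, -1.28, -1.47 and -1.84 on AIA-hot and -1.06, -0.61 and -1.13 on AIA-hot-WTD arrays. Within each model the WTD arrays were all higher, with a difference of 0.71 in the cold and 0.59 in the hot model. The pooled difference was 0.65 ± 0.14 (1.57-fold), 0.83 with the slide as a fixed block and 0.39 with normexp background correction. The best-known gene of the family, Slc2a1, differed by 0.11, with a 95% interval from -0.23 to 0.46.

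Per3, a period gene of the circadian clock, differed by 0.47 ± 0.10, with 0.55 in the cold and 0.40 in the hot model. Its AIA-cold arrays lay at -3.79, -3.83 and -3.83 and the AIA-cold-WTD arrays at -3.38, -3.28 and -3.14, without overlap. The AIA-hot arrays lay at -3.98, -3.61 and -3.91 and the AIA-hot-WTD arrays at -3.69, -3.37 and -3.23, where 1 untreated array exceeded 1 treated array. The pooled difference was 0.24 with the common floor and 0.08 with normexp. Of the 15 clock genes, 5 lay above 0 and 10 below, with a median of -0.03. Tef, a clock output factor, differed by 0.28 ± 0.11 and Npas2, a partner of Bmal1, by -0.34 ± 0.15, while Per1 (-0.19), Per2 (-0.03) and Bmal1 (-0.11) had intervals on both sides of 0.

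Among the other higher genes, Lrrc20 (0.46 ± 0.11) and Bmf, a BH3-only gene that promotes apoptosis (0.49 ± 0.12), were well above background on all 12 arrays. Dip2c (0.82), Zfp775 (0.47), Krt13, a keratin of mucosal epithelium (0.69), and Htr2a, a serotonin receptor (0.64), were dimmer. For Htr2a the 2 other probes gave 0.16 and -0.14. Epg5, Slc37a1, Mtmr1 and Slc23a2 were not well above background on any untreated array, and no fold is given for them. Spag1, well above background on 0 untreated and 6 WTD arrays, was at least 1.23-fold higher by each array's own floor and differed by 0.01 with the common floor. Of the 15 higher genes, 3 were well above background on all 12 arrays, against 9 of the 15 lower genes. The share of probes above background was itself higher on the WTD arrays, as given above, and its part in the dim higher genes was not tested.

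**Figure D2:**
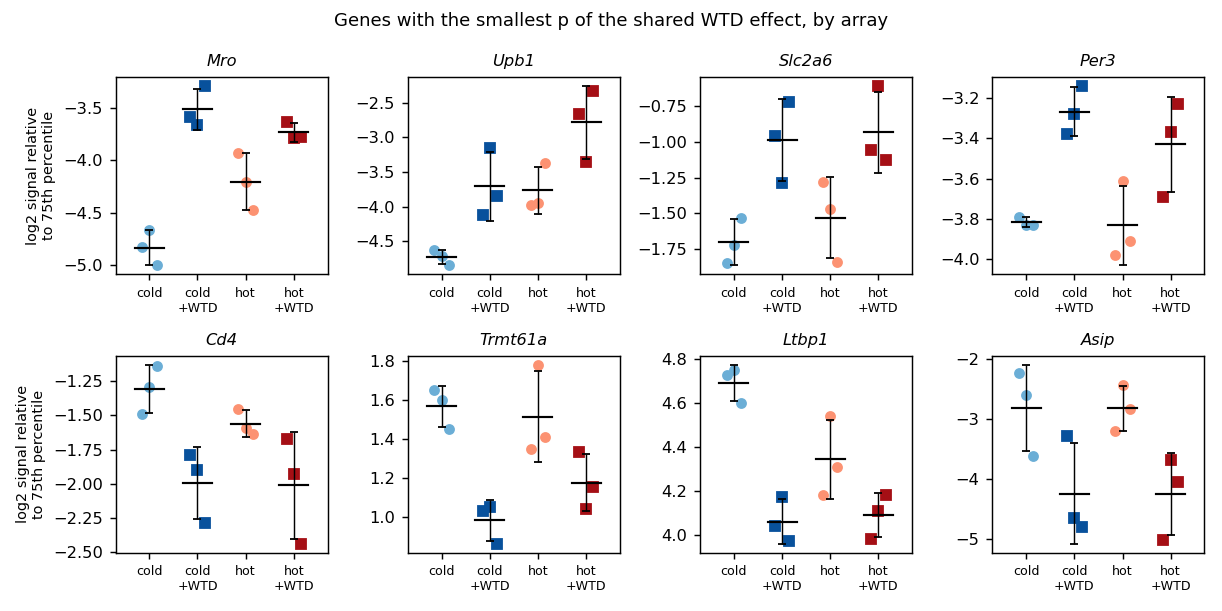
Log2 signal relative to the array's 75th percentile for 4 higher and 4 lower genes of small p, with 1 point per array (3 per group), the group mean as a line and 1 SD as the error bar. For Mro, Trmt61a and Cd4 the 6 WTD arrays lie wholly on one side of the 6 untreated arrays; for Upb1, Slc2a6, Per3, Ltbp1 and Asip the groups of 6 overlap or touch.

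Cd4 was lower with WTD in both models without overlap. It read -1.49, -1.29 and -1.14 on AIA-cold and -1.79, -1.90 and -2.29 on AIA-cold-WTD arrays, and -1.45, -1.59 and -1.64 on AIA-hot and -1.67, -1.93 and -2.44 on AIA-hot-WTD arrays. The gap between the groups was narrow in the hot model. The pooled difference was -0.57 ± 0.14 (95% interval -0.88 to -0.26). It was -0.35 with normexp background correction and -0.42 with the slide as a fixed block. Of 13 T and NK cell markers, Cd4 included, 7 had the same sign in both models. Lck, a kinase of T cells, differed by -0.64 in the cold and -0.02 in the hot model, Cd3d by 0.20 in the cold and -0.47 in the hot model, Cd3e by 0.57 and -1.14, and Cd8a by 0.69 and -1.07. Nkg7, another of the 13, was higher with WTD in both models, by 0.78 in the cold and 0.85 in the hot model. In the pooled difference 11 of the 13 lay below 0, with a median of -0.23, against -0.02 over all genes. The list median was 0.18 in the cold and -0.45 in the hot model, and 0.02 with the slide as a fixed block.

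Trmt61a, the catalytic subunit of a tRNA adenine methyltransferase, read 1.65, 1.60 and 1.45 on AIA-cold and 1.03, 1.05 and 0.86 on AIA-cold-WTD arrays. In the hot model it read 1.35, 1.78 and 1.41 without and 1.33, 1.04 and 1.15 with WTD. No WTD array reached the lowest untreated array, and the pooled difference was -0.46 ± 0.10. Nop58, a core protein of box C/D snoRNPs, likewise separated the 6 WTD arrays (2.05 to 2.37) from the 6 untreated arrays (2.40 to 2.80), with a difference of -0.40 ± 0.09.

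Ltbp1 had medians of 4.08 on WTD and 4.57 on untreated arrays and differed by -0.44 ± 0.10. P4ha1, a subunit of the prolyl hydroxylase that acts on collagen, ranged from 0.28 to 0.96 with WTD and from 1.00 to 1.38 without. Its difference was -0.47 ± 0.13, and -0.22 with the slide as a fixed block. The collagens themselves had 12 of 13 measured members below 0 and a median of -0.24, but that median was 0.58 with the slide as a fixed block. Of the 13 collagens, 6 (46.2%) had the same sign in both models, against 47.4% of all genes. Asip, the agouti signalling protein, differed by -1.42 ± 0.33 (2.68-fold lower) and by the same -1.42 in each model; it was -0.70 with the common floor and -0.49 with normexp. AIA-cold replicate 3, at -3.62, lay below AIA-cold-WTD replicate 1, at -3.28, so the cold groups overlapped. Ecrg4, a secreted peptide precursor, differed by -1.05 ± 0.25 and overlapped in the hot model.

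Gria2, Nap1l5, Lingo1, Map3k10 and Heatr3 were also lower, by -0.86, -0.56, -0.50, -0.81 and -0.48, at levels near background on part of the arrays. RT1-T18, a class I gene of the rat major histocompatibility complex, differed by -0.64 ± 0.15; related class I genes may share its signal. Rps12l5, named as a copy of a ribosomal protein gene, differed by -0.50 ± 0.15 with the same limit. Eif4e, the cap-binding initiation factor, met the rule for largest differences through 1 array: AIA-hot-WTD replicate 3 read -1.01, and the other 11 arrays lay between 2.01 and 2.46. Its second probe gave -0.16.

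The largest shared differences belonged to other genes, with wide errors. Of the 153 genes that differed by more than 1 on the log2 scale, 109 were higher and 44 lower. The 15 largest in each direction, chosen after their values were seen, are used here as a description. The higher ones ran from 2.21 to 4.45 with standard errors of 0.67 to 1.58, and 12 of the 15 had an unadjusted p under 0.05. For 9 of the 15 the probe was well above background on at most 2 of 6 untreated arrays, so their sizes and order are not exact. They included granule genes of neutrophils and their precursors (Ctsg, Camp, Defa5, RatNP-3b, S100a8), the red cell membrane gene Rhag and the bone matrix genes Bglap, Ibsp and Mepe.

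Ctsg, the granule protease cathepsin G, had a fitted difference of 4.45 ± 1.53 (95% interval 1.1 to 7.81), with the probe well above background on 2 of 6 untreated arrays. It read -6.60, -6.57 and 0.99 on AIA-cold and -3.53, 1.30 and 2.24 on AIA-cold-WTD arrays, and -4.88, -3.18 and -6.41 on AIA-hot and -2.63, 2.96 and -0.27 on AIA-hot-WTD arrays. The hot groups did not overlap, whereas AIA-cold replicate 3 lay between the treated arrays of its model. Bglap, which encodes osteocalcin of bone matrix, differed by 3.60 ± 1.55. It read -2.72, -2.09 and 5.60 on AIA-cold, 1.80, 5.18 and 4.50 on AIA-cold-WTD, -1.60, -1.55 and -2.20 on AIA-hot and -1.16, 6.36 and 0.36 on AIA-hot-WTD arrays. AIA-cold replicate 3 was again the exception among untreated arrays.

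The same arrays were high for most of these genes. AIA-cold replicate 3 was the highest untreated array for 14 of the 15 genes, AIA-cold-WTD replicate 3 or AIA-hot-WTD replicate 2 was the highest treated array for 15 of 15, and AIA-cold-WTD replicate 1 was the lowest treated array for 10. Without AIA-cold-WTD replicate 1 all 15 differences were larger, for Ctsg 5.28 and for Rhag 4.63 instead of 3.53.

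Marker lists of these tissues are described next; members outside the 3 of smallest p per list were chosen for mention after their values were seen. All 7 neutrophil markers measured of 12 lay above 0, with a median of 1.94, 1.77 in the cold and 2.17 in the hot model, against -0.02 over all genes, of which 45.3% lay above 0. Lcn2 (1.16 ± 0.35), Camp (2.82 ± 1.06), S100a8 (2.21 ± 0.97) and S100a9 (1.87 ± 0.90) were higher in both models, and Mpo, a gene of early granulocyte precursors, differed by 0.43 ± 0.65. The mean of the list was -0.81, -0.45 and 1.04 on AIA-cold, -1.14, 1.99 and 3.47 on AIA-cold-WTD, -0.49, 0.15 and -0.54 on AIA-hot and 0.51, 3.37 and 1.35 on AIA-hot-WTD arrays. The groups separated in the hot model and overlapped in the cold model, where AIA-cold-WTD replicate 1 was the lowest of all. The median was 0.78 with the slide as a fixed block and 2.66 without AIA-cold-WTD replicate 1. Within slide 4 the median was -1.42 in the cold model, and within slide 3 it was 2.42 in the hot model. The fixed block thus pooled opposite directions.

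Of the 8 bone and osteoblast markers measured, 6 lay above 0, with a median of 1.12. Ibsp (2.94 ± 1.58) and Mepe (2.77 ± 1.26), well above background on 1 and 2 of 6 untreated arrays, had differences of 1.70 and 1.82 with the common floor. Bglap was well above background on all 12 arrays, and Runx2, the osteoblast transcription factor, differed by -0.07 ± 0.19. The list averaged 0.79 on AIA-cold replicate 3, equal to the highest WTD array. The 8 erythroid markers had a median of 1.33, with Rhag at 3.53 ± 1.32 (well above background on 1 of 6 untreated arrays, 2.16 with the common floor), Ahsp at 1.73 ± 0.96 and Hbb, a haemoglobin gene, at -0.42 ± 0.70. The erythroid median was -0.56 with the slide as a fixed block. Of the 3 osteoclast markers measured of 11, Mmp9, which neutrophils also carry, differed by 2.94 ± 1.21 (well above background on 1 of 6 untreated arrays, 1.36 with the common floor), Acp5 by 0.38 ± 0.19 and Ctsk by -0.17 ± 0.38.

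**Figure D3:**
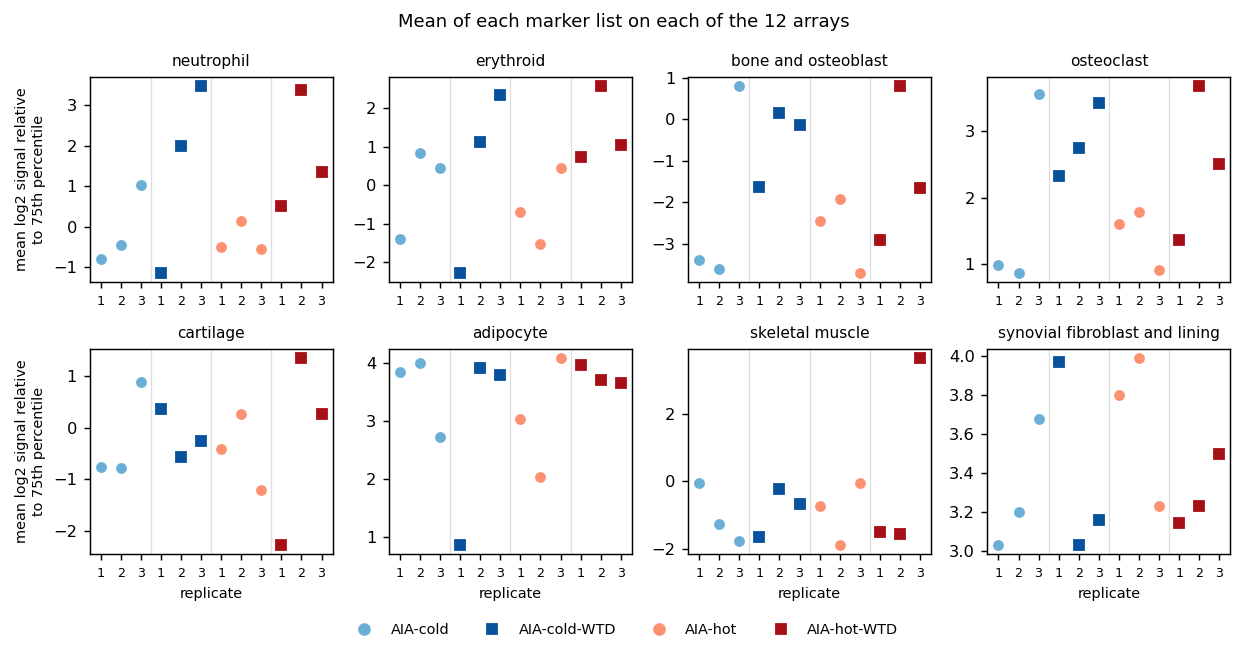
Mean log2 signal, relative to the array's 75th percentile, of the measured genes of 8 marker lists on each of the 12 arrays, with 1 point per array and replicate numbers on the x axis. Neutrophil and bone markers are high together on AIA-cold replicate 3, AIA-cold-WTD replicates 2 and 3 and AIA-hot-WTD replicate 2; adipocyte markers are lowest on AIA-cold-WTD replicate 1 (0.87) and muscle markers highest on AIA-hot-WTD replicate 3 (3.63).

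The largest lower differences included genes of tendon and dense connective tissue. Tnmd (tenomodulin, a membrane protein of tendon cells) differed by -2.42 ± 0.93, Cilp2 by -2.39 ± 1.09, Kera (keratocan) by -1.96 ± 0.93 and Fmod (fibromodulin) by -1.54 ± 0.66. Tnmd read 2.59, 2.38 and 1.17 on AIA-cold, 3.39, -0.95 and -1.93 on AIA-cold-WTD, 2.78, 3.94 and 1.22 on AIA-hot and -2.54, 0.55 and 1.03 on AIA-hot-WTD arrays. AIA-cold-WTD replicate 1 was the highest cold array and the other two WTD arrays the lowest, and the hot groups did not overlap. With the slide as a fixed block these differences were -0.10 for Tnmd, -0.23 for Cilp2, -0.14 for Kera and 0.11 for Fmod. Ucma, a cartilage matrix gene, kept its value with the block (-1.84 ± 0.52 and -1.98).

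The 11 cartilage markers differed in both directions: 5 lay above and 6 below 0, from Col2a1 at 2.41 ± 1.39 to Chad at -1.15 ± 0.79. A second probe of Col2a1 gave 0.15. The 14 skeletal muscle markers had a median of 0.65, which was -0.18 without AIA-hot-WTD replicate 3. The 12 adipocyte markers had a median of -0.08, with -0.80 in the cold and 0.72 in the hot model. The part of bone, marrow, fat or muscle RNA in the differences above was not tested.

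No mediator of arthritis in a fixed panel passed the test. Of the 23 panel genes that were measured, of 24, 9 had the same sign in both models, 4 had an unadjusted p under 0.05 (Mmp9, S100a8, Zim1 and Alox15b) and 9 had a 95% interval within 2-fold. Il1b, a main cytokine of joint inflammation, ranged from -0.91 to 0.56 with WTD and from -0.63 to 0.69 without, and differed by -0.15 (95% interval -0.78 to 0.47). Ccl3, a chemokine for monocytes, differed by -0.06 (-0.31 to 0.19) and Prg4, the lubricin gene of the lining, by 0.11 (-0.29 to 0.51). For these genes a shared difference of over 2-fold lies outside the interval. For others the arrays leave wide limits: Mmp13, a collagenase, had an interval from -2.89 to 3.50 and Mmp3 one from -1.41 to 0.84. That of Il6, from -0.96 to 0.56, lay just within 2-fold, but its probe was dim. It read -4.59, -4.11 and -4.79 on AIA-hot-WTD arrays, under their own floors of -4.48, -3.92 and -4.66. AIA-cold replicates 1 and 2 and AIA-hot replicate 3 were also under their floors, and the other arrays were above. The interval of Il6 therefore sets no limit on its change.

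**Figure D4:**
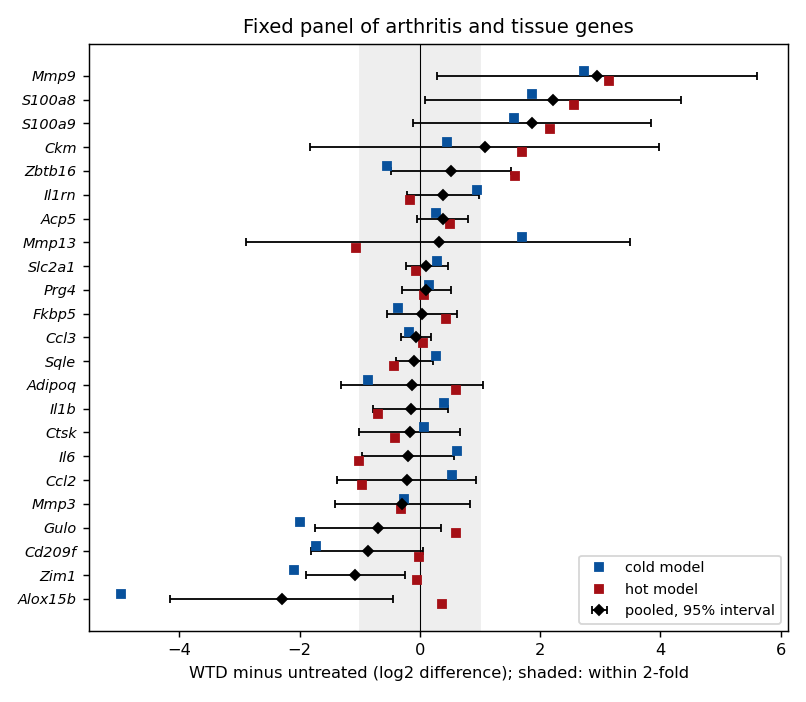
WTD minus untreated log2 difference for the 23 measured panel genes: pooled value with its 95% interval in black and the values of the cold (blue) and hot (red) models. The interval of Ccl3 (-0.31 to 0.19) is among the narrow ones inside the shaded 2-fold range, that of Mmp13 spans -2.89 to 3.50, and the cold and hot values of Alox15b lie far apart.

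Medians of inflammatory pathway lists were between -0.22 and -0.07, against -0.02 over all genes. They were -0.11 for 7 proinflammatory cytokines, -0.22 for 14 CC chemokines, -0.08 for 10 CXC chemokines, -0.07 for 19 genes of Toll-like receptor and NF-kB signalling and -0.07 for 15 interferon-response genes. Of the 19 Toll-like receptor and NF-kB genes, all 19 had intervals within 2-fold. Of the CC chemokines 13 of 14 lay below 0 in the pooled difference. Only 4 of the 14 (28.6%) had the same sign in both models, against 47.4% of all genes. The interferon-response median was 0.27 in the cold and -0.41 in the hot model. With the slide as a fixed block the medians were 0.33 for CC and 0.10 for CXC chemokines and 0.09 for proinflammatory cytokines. In the same fit they were 0.07 for interferon-response and 0.04 for Toll-like receptor and NF-kB genes. Macrophage markers had 11 of 13 members below 0 and a median of -0.18, with -0.41 in the cold and -0.06 in the hot model. Cd163, a scavenger receptor of resident macrophages, differed by -0.36 ± 0.14 and Csf1r by -0.30 ± 0.14. Timd4 went the other way, with medians of -1.14 on WTD and -1.52 on untreated arrays. The macrophage list median was 0.05 with the slide as a fixed block.

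Cell cycle genes had 16 of 17 members above 0 and a median of 0.44, with 0.66 in the cold and 0.20 in the hot model. Mki67, the proliferation marker, had medians of 0.40 on WTD and -0.28 on untreated arrays and differed by 0.84 ± 0.39 (95% interval -0.02 to 1.71), with overlap. Glucocorticoid-induced genes had 11 of 15 below 0 and a median of -0.19, with -0.37 in the cold and -0.07 in the hot model. Among them Ddit4, an mTOR inhibitor, differed by -0.66 ± 0.19, Cebpd by -0.62 ± 0.27 and Nfkbia by -0.28 ± 0.12. Nfkbia differed by -0.51 in the cold and -0.06 in the hot model. Fkbp5 differed by 0.03 ± 0.26 and Zbtb16 by 0.52 (0.01 for its second probe). Glycolysis genes had 11 of 16 above 0 and a median of 0.21, which was -0.01 with the slide as a fixed block. In fatty acid and triglyceride synthesis 12 of 14 lay above 0, with Fasn at 1.69 ± 0.75 and Scd at 1.60 ± 0.66 (0 for its second probe), but that median turned from 0.37 to -0.85 with the slide as a fixed block.

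**Figure D5:**
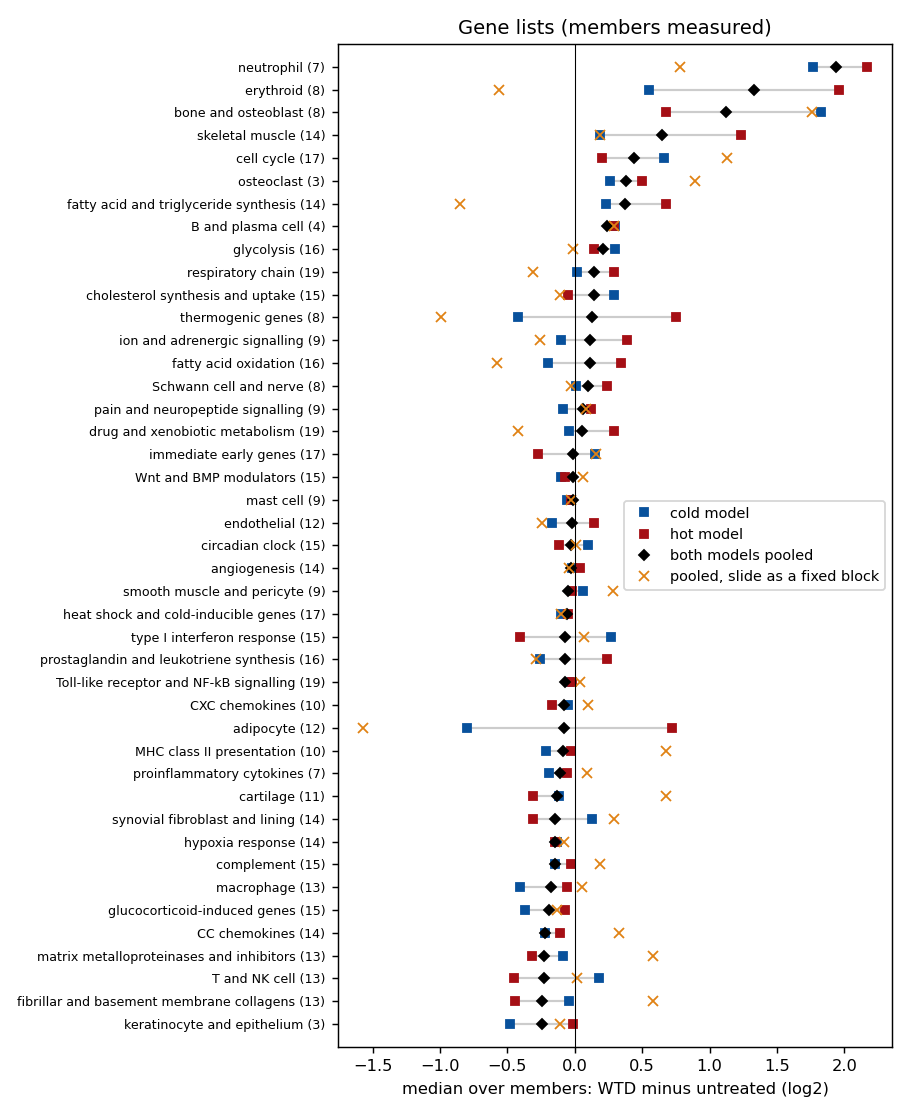
Median WTD minus untreated log2 difference over the measured members of 43 gene lists (number measured in parentheses), pooled (black), in the cold (blue) and hot (red) models and pooled with the slide as a fixed block (orange crosses). Neutrophil, bone and erythroid lists have the highest pooled medians (1.94, 1.12 and 1.33), 36 of 43 medians lie within 0.25 of 0, and the fixed block turns the sign of 27.

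Over the 43 lists, 27 had medians on the same side of 0 in both models, and no list held a called gene. The difference of the WTD effect between the models, which bears on whether an effect can be called shared, had 2 called genes (0.00851%) and 1404 at an unadjusted p under 0.05 (5.97%). One of the called genes was Alox15b, a lipoxygenase, with a fitted difference of -4.97 in the cold and 0.37 in the hot model. It was well above background on the 3 AIA-cold arrays and on 0 of the other 9 arrays.

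Single arrays weighed on the counts at an unadjusted p under 0.05. Without AIA-cold-WTD replicate 1, limma again called 0 genes, but the smallest adjusted p was 0.356. There were then 2980 genes at an unadjusted p under 0.05 (1282 higher, 1698 lower). Of the 23508 genes, 475 had no overlap in the same direction in both models, against 228 in opposite directions. Without that array 41.4% of genes had no overlap in the cold model, against 14.2% with it. Smaller groups separate more readily, so counts without overlap after leaving out an array are not comparable with those of all arrays (119 and 124). Among the 30 genes the smallest p without AIA-cold-WTD replicate 1 belonged to Map3k10, a kinase of the JNK pathway (-0.97 ± 0.17), and Asip (-1.64 ± 0.30). Col1a1, the main collagen of connective tissue, differed by -0.70 ± 0.32 with all arrays, -0.98 ± 0.22 without that array and 0.27 with the slide as a fixed block. Without AIA-cold-WTD replicate 3 there were 618 genes at an unadjusted p under 0.05, and without AIA-cold replicate 1 719. Genes without overlap in the same and in opposite directions numbered 390 and 252 without AIA-hot-WTD replicate 1, 298 and 562 without AIA-hot replicate 3, 279 and 192 without AIA-hot replicate 1, 231 and 281 without AIA-hot-WTD replicate 3, 209 and 329 without AIA-hot-WTD replicate 2, 203 and 214 without AIA-hot replicate 2, and 187 and 289 without AIA-cold replicate 3.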

How the data were processed

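RNA of rat knee synovium was measured on 1-colour Agilent arrays. The deposited scanner files hold intensity values, background-subtracted on each array per the file headers. The submitters' processing notes name Agilent Feature Extraction 10.7. The series table deposited by the authors was taken as log2 values, since its columns correlated with the log2 processed intensity at 0.989 to 1.000; the function that made it is unknown, and it served as an alternative.

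Control and outlier spots were left out, log2 values were set relative to each array's 75th percentile, and a probe was kept if 1 of the 4 groups had it well above background on each of its 3 arrays (28195 probes). The brightest kept probe stood for each gene. The RefSeq gene table of GRCr8 gave names to 18132 probes through their accession, to 3134 through a symbol and to 399 through a synonym; 19347 carry the file's own name. limma 3.58.1 in R 4.3.3 fitted the model and WTD over the 12 arrays, with 9 residual and 2.24 prior degrees of freedom; p-values were adjusted by Benjamini-Hochberg over all 23508 genes, and ± gives the moderated standard error. The number of arrays limits the precision. The fit was tested on simulated data with independent noise on each array. The simulation held no slide effect, no outlying array and no detection floor, so it does not cover these features of the data.

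Named genes were the 12 of smallest p in each direction, the largest without overlap in both models, the 3 of smallest p in each list and a fixed panel; placeholder symbols were passed over, and further list members were chosen for mention after their values were seen. The members and lists were chosen with earlier results of these data known. Of 633 list entries, 529 were measured. Alternatives covered normalization, background correction, dim probes, slide, array weights and each array left out.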

Additional observations from a re-analysis of the deposited data

Results flagged for a closer look

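The WTD effect on Alox15b differed between the models. The cold effect minus the hot effect was -5.33 ± 0.58 (log2, SE), with an adjusted p of 0.043 from limma's interaction term over 23508 genes. The 3 AIA-cold arrays averaged -2.29 ± 0.79 (SD) and the 3 AIA-cold-WTD arrays -7.26 ± 0.33, against -6.01 ± 0.24 for AIA-hot and -5.65 for AIA-hot-WTD. Only the AIA-cold arrays were well above background, so the low values have no exact level. No gene was called for this difference with normexp, no filter or a stricter filter on dim probes, the slide as a random block, all 18 arrays, the intensity trend or the common floor, nor in 9 of 12 fits with 1 array left out. An unnamed transcript was the other called one, at 2.83 ± 0.32 and the same adjusted p of 0.043.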

How the results depend on the processing

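Over 27 alternatives the count of genes called for the shared WTD effect was 0, apart from 1 gene without AIA-hot replicate 1 (a transcript known only as BE112341, 1.60, limma adjusted p 0.00441); leaving out single arrays gave 0 to 1. The count at an unadjusted p under 0.05 was 716 with normexp background correction, 3566 with no filter on dim probes, 4038 with the slide as a fixed block, 4103 with array weights, 615 without slide 5 (an alternative chosen after seeing the data) and 618 to 2980 with single arrays left out. The count of genes without overlap in both models was 46 with normexp, 336 without slide 5 and 138 to 475 with single arrays left out. Smaller groups separate more readily, so the counts with arrays left out are not comparable with the 119 of all arrays. Calls for the difference between models were 1 with quantile normalization and with the series table; 0 with normexp, no filter, the stricter filter, the slide as a random block, all 18 arrays, the intensity trend or a floor on dim values (chosen after seeing the data); 6 with the fixed block; 818 with array weights; and 0 to 8 with single arrays left out, 0 in 9 of 12. The cause of these shifts was not tested.

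Of the 30 leading genes, 18 were smaller by over 1.5 times with the common floor (5 of them at 0: Epg5, Slc37a1, Slc23a2, Gria2 and Lingo1) and 21 with normexp; none turned to the opposite sign. With the slide as a fixed block all 30 leading genes kept their sign, but their sizes moved in both directions. Slc2a6 went from 0.65 to 0.83, Mro from 0.89 to 0.99 and Mtmr1 from 0.99 to 1.60. Spag1 went from 0.81 to 0.32, Rps12l5 from -0.50 to -0.25 and Asip from -1.42 to -0.94. Of the list medians, those of neutrophil (0.78 to 2.66), bone (0.66 to 1.76) and cell cycle genes (0.21 to 1.13) stayed above 0. So did those of osteoclast (0.1 to 0.89) and B and plasma cell genes (0.03 to 0.32). Those of glucocorticoid-induced (-0.26 to -0.09), hypoxia (-0.19 to -0.07) and heat shock genes (-0.12 to -0.01) stayed below 0. For neutrophil genes the fixed block pooled medians of opposite sign in the cold (-1.42) and hot (2.42) models. The slide as a fixed block turned the sign of 27 of 43 medians; in it the WTD effect rests on 1 treated array against 3 in the cold and 3 against 1 in the hot model. No paired analysis was possible because the replicate numbers follow the order of deposition and pair no arrays across groups. Signal over background limits the dim genes, and 3 arrays per group limit differences in genes that vary between arrays, such as those of bone and neutrophils.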
